A study of Mus musculus with 11 samples.

Results

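The genes of prohormone processing and of the granule matrix were read in bulk RNA of whole pancreatic islets. They are 10 genes chosen by function, not by a measured value, out of the 19329 gene IDs in the table, and all 10 had a value in every PDX1P33T library. They are the convertases *Pcsk1* and *Pcsk2*, the partner proteins *Pcsk1n* and *Scg5*, the carboxypeptidase *Cpe*, the granins *Chga*, *Chgb*, *Scg2* and *Scg3*, and the zinc transporter *Slc30a8*. The libraries came from untreated male mice aged 14 weeks, with 6 libraries of wild-type islets and 5 of islets homozygous for PDX1P33T, a CRISPR-made germline change of proline 33 to threonine in the transcription factor PDX1 on a C57BL/6N background. The change is germline, so it was carried by every cell of the animal and not by beta cells alone. Per the study's legend, each biological replicate drew on 6 mice, so that a library can hold a pool of animals, and n and SD count libraries. A gene-level table does not show a single-base change, so the genotype labels could not be checked from the expression of *Pdx1*.

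Islet hormones are made as longer precursors that are cut in the secretory granule. A convertase cuts after paired basic residues, a carboxypeptidase trims the basic residues left at the cut end, and granins aggregate with the hormone at the low pH of the granule. In beta cells the granule also takes up zinc, with which insulin crystallises, and PDX1 is a main transcription factor of these cells.

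Sequences of the promoters are shown for the members in which a shared element was found, since these genes are the granule members whose upstream regions have letters in common. RefSeq promoters on GRCm38.p6 were matched for 8 of the 10 members, and none was at hand for *Cpe* and *Slc30a8*. The 250 bases upstream of each start were searched on both strands for TGACGTCA, the cAMP response element, and for its shorter core TGACGT, which overlaps the full element. The full element was in 3 of the 8, *Pcsk1*, *Scg2* and *Chgb*, against 1.55% of all 32851 promoters. The core alone was in *Chga* and *Scg5* as well, which makes 5 of 8 against 6.47% of all promoters. The 200 bases before the start follow, 5′ to 3′ on the strand of the gene, with each match in capitals.
Pcsk1, chr13:75089657-75089856, plus strand: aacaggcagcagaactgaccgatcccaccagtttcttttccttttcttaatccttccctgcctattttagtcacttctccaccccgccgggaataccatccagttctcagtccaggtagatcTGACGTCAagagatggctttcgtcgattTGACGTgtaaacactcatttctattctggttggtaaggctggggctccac
Scg2, chr1:79440027-79440226, minus strand: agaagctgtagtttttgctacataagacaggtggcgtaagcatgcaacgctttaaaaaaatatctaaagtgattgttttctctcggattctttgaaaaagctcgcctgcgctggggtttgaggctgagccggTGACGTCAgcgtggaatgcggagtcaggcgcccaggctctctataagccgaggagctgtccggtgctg
Chgb, chr2:132781442-132781641, plus strand: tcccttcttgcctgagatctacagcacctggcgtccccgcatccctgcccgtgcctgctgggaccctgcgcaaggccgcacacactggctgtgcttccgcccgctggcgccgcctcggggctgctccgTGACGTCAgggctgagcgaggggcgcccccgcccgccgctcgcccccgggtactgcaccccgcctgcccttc
Chga, chr12:102554741-102554940, plus strand: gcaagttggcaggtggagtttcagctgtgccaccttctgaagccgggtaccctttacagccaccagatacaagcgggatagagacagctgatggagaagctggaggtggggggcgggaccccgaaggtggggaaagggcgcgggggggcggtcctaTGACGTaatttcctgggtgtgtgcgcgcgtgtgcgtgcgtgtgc
Scg5, chr2:113829092-113829291, minus strand: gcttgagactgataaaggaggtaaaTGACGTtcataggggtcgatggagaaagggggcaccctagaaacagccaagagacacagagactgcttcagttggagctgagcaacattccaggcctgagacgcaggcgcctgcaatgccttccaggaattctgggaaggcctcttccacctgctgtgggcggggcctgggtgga
The full element began 78 bases upstream of the start in *Pcsk1*, 72 in *Chgb* and 68 in *Scg2*, and *Pcsk1* held a further core at 50. In *Chga* the core began 44 bases upstream and in *Scg5* 175. *Pcsk2*, *Pcsk1n* and *Scg3* held neither run of letters in this window. A match is a run of letters and not a measured binding site.

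The reads counted per library ran from 19311937 to 37094286, so every member rested on at least 5300 reads in each library and counting error was small beside the spread between libraries. Values are FPKM, read counts scaled by gene length and library size, so that each is a share of its library. Comparisons between libraries therefore shift with the share of hormone transcripts and with trends on GC content and length, both taken up below. The wild-type values of most genes stood on the rows of other genes in the deposited table and were used only where the gene's own row could be found. For *Pcsk2*, *Pcsk1n*, *Cpe*, *Scg5*, *Chga*, *Chgb* and *Scg2* a row of the gene's length held values at its level and no other row came within 16-fold. *Slc30a8* was found only when that limit was lowered to 8-fold, as another row of its length was 12.6-fold below it. No wild-type row could be tied to *Pcsk1* or *Scg3*, so these were read in PDX1P33T alone. As group means had to lie within 4-fold for such a match, a larger difference would not have been seen. All 9 beta cell markers had a value in every PDX1P33T library, where they summed to between 237179 and 335006 FPKM, mostly insulin.

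A pair of libraries stood apart. PDX1P33T replicate 2 was the highest or the lowest of its group for every member, and wild-type replicate 3 was the lowest of its group for 6 of the 8 members compared and the highest for *Pcsk1n*. Some libraries were also unusually alike, namely wild-type replicates 4 and 5, PDX1P33T replicates 1 and 4, and PDX1P33T replicates 3 and 5, with median chi-squares per gene of 1.84, 2.12 and 1.19 against 0.45 from counting alone and up to 17.69 between others. They differed by more than counting noise, which does not show that they came from separate mice, and the labels do not say. They were counted as separate libraries, so n can overstate the number of independent samples.

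The granule genes were among the most abundant transcripts of PDX1P33T islets. *Chga* ranked 7th of all gene IDs, and the lowest of the members, *Pcsk1*, ranked 340th. Together the members took from 2.97% to 3.59% of the reads counted. *Chga* led with 5167 ± 726 FPKM (SD, n = 5), 53.5 times the level of *Pcsk1*, which had 96.6 ± 20.7. *Scg2* at 1487 ± 204 and *Cpe* at 1473 ± 108 came next, and their ranges overlapped. *Scg2* was above *Cpe* in only 1 of the 5 libraries, replicate 2, without which their means were 1413 and 1497. *Pcsk1n* followed with 963 ± 155, below *Cpe* and above *Pcsk2* in all 5 libraries and with no overlap of ranges. *Pcsk2* at 685 ± 88.7, *Chgb* at 606 ± 85.0, *Scg5* at 543 ± 112 and *Scg3* at 509.9 ± 42.9 overlapped from each to the next, although *Pcsk2* was above *Chgb* within each of the 5 libraries, by 1.06 to 1.19 times. *Scg5* was above *Scg3* in only 1 of the 5, again replicate 2. *Slc30a8* had 302 ± 85.7 and overlapped *Scg3* through replicate 2, and *Pcsk1* lay below it in every library.

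**Figure D1:**
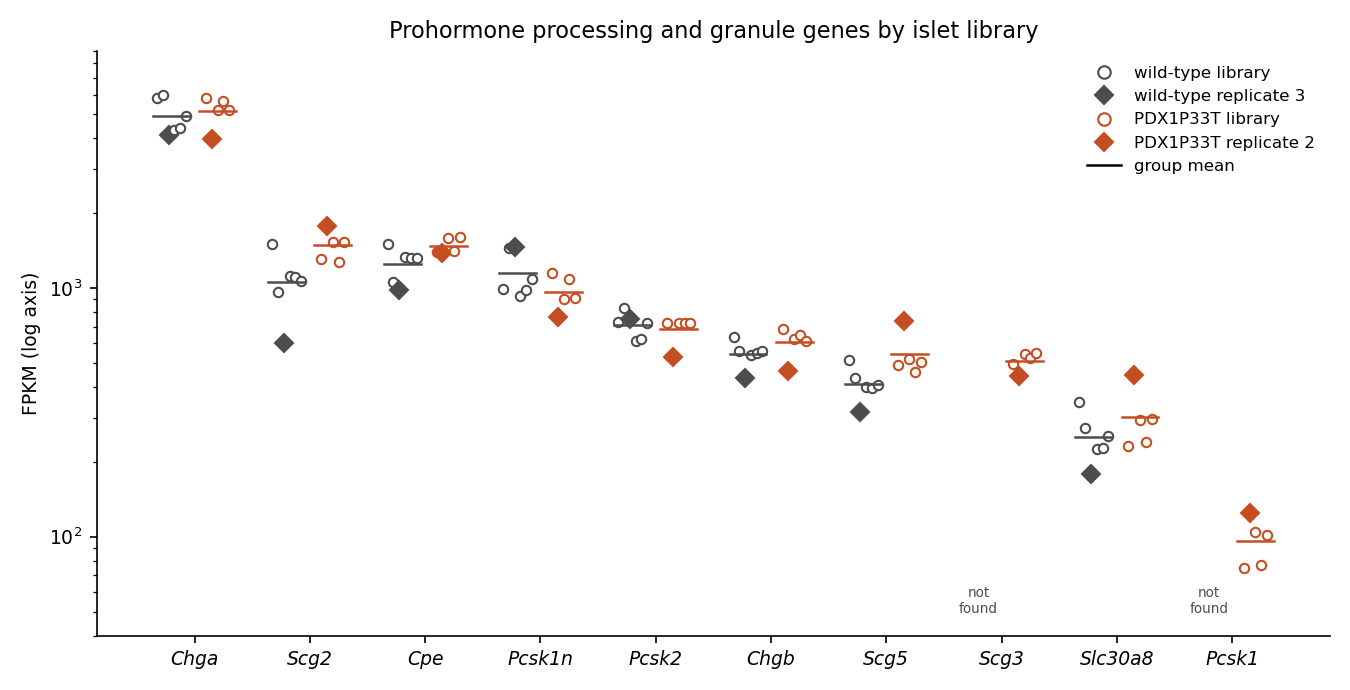
FPKM (log axis) of the 10 genes in each islet library, in order of their PDX1P33T mean. Points are libraries, 6 wild-type and 5 PDX1P33T, lines are group means, filled diamonds mark wild-type replicate 3 and PDX1P33T replicate 2, and "not found" marks the genes without a wild-type row; levels run from 5167 FPKM for *Chga* to 96.6 FPKM for *Pcsk1*, and wild-type *Slc30a8* rests on the 8-fold limit.

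Genotypes were compared to ask whether the P33T change altered the transcripts of the processing machinery. None of the 7 members in the fit was called by limma, for which both a Benjamini-Hochberg adjusted p up to 0.05 and a change by 1.5 times or more were needed. Of the 4725 genes tested 0.0847% were called in either direction, 0.0423% higher and 0.0423% lower, and 0.0289% of the 3455 genes that met the rule on length and level, as all 7 members did. In none of the 7 were the groups free of overlap, against 4.85% of all genes. An unadjusted p under 0.05 was reached by 2 members, *Scg5* and *Scg2*, both higher in PDX1P33T. That level was reached by 34.0% of all genes tested, 15.7% higher and 18.3% lower, and by 14.5% of the genes of the length and level rule, 7.44% higher. *Scg5* and *Scg2* were also among the genes placed by the reads in the study's own gene table, of which 87.1% reached it. The median log2 fold change of PDX1P33T over wild-type was 0.15 over the 7 members and -0.06 over all genes tested, and scaling the libraries without the hormone genes moved them to 0.30 and 0.08. Of the 7 members, 5 had a positive and 2 a negative log2 fold change, and 6 had a positive one after that scaling. In bulk islet RNA fewer cells of a type and less RNA per cell cannot be told apart.

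Markers of other cells of the islet preparation were summed beside these values, and no marker was called by limma. Of the Schwann and neural markers 2 of 5 could be compared, and their sum was from 0.608 to 1.11 FPKM in PDX1P33T and from 1.14 to 4.44 in wild-type, without overlap. The 6 endothelial and stromal markers compared, of 7, summed to between 23.7 and 54.4 FPKM in PDX1P33T and between 31.0 and 151 in wild-type, and the 3 immune markers of 6 to between 15.6 and 24.8 and between 19.8 and 50.6, with overlap in both lists. None of the sums was tested. The highest sums of the endothelial and immune lists were in wild-type replicate 3. Sums of endocrine markers overlapped, with 5 of 9 beta cell markers at 236326 to 334242 FPKM in PDX1P33T and 200621 to 281531 in wild-type, 2 of 6 alpha cell markers at 9025 to 11986 and 4707 to 11198, and 3 of 5 delta and PP cell markers at 11517 to 22198 and 14307 to 34671. The part of these lists in the values of the granule genes was not tested.

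Of the convertases, *Pcsk2*, which makes glucagon in alpha cells and also cuts proinsulin in beta cells, did not differ between genotypes beyond the spread of the libraries. It read 725, 527, 726, 723 and 726 FPKM in PDX1P33T replicates 1 to 5, and in wild-type from 615 to 830.0 with a median of 727. Apart from the low replicate 2, the PDX1P33T libraries lay between 723 and 726 FPKM, inside the wild-type range. The log2 fold change was -0.06 (SE 0.13, 95% interval -0.33 to 0.21; limma, adjusted p = 1.00), and it became 0.03 without replicate 2. *Pcsk1*, which makes the early cuts in proinsulin and is scarce in alpha cells, read 75.1, 124, 104, 76.8 and 102 FPKM in PDX1P33T. Its libraries fell in 3 steps, with replicates 1 and 4 low, 3 and 5 in the middle and 2 at the top.

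*Scg5* encodes the chaperone that convertase *Pcsk2* needs to become active. It read 492, 739.7, 518, 460.3 and 505 FPKM in PDX1P33T and from 316 to 514 in wild-type, with a median of 404. Wild-type replicate 1 reached into the PDX1P33T range, and every other wild-type library was below all 5 PDX1P33T libraries. The log2 fold change was 0.39 (SE 0.15, 95% interval 0.07 to 0.72; limma, adjusted p = 0.499), and the two-sided exact permutation test over the 11 libraries gave p = 0.0173, where 0.0043 is the smallest p possible. Without PDX1P33T replicate 2 and wild-type replicate 3 the log2 fold change was 0.20 and the exact permutation p was 0.0635. With the pairs of like libraries averaged the log2 fold change was 0.46 (limma, adjusted p = 0.989).

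*Pcsk1n* encodes proSAAS, a granule protein that inhibits convertase *Pcsk1*. It read 1147, 767, 900.0, 1091 and 909 FPKM in PDX1P33T and from 930.1 to 1460.2 in wild-type, with a median of 1040.0. The groups overlapped, and 3 PDX1P33T libraries were below every wild-type library. Its log2 fold change of -0.25 (SE 0.16, 95% interval -0.60 to 0.10; limma, adjusted p = 1.00) was the most negative of the members. It was -0.10 with the libraries scaled without the hormone genes, -0.09 with the trends on GC content and length removed and -0.10 without PDX1P33T replicate 2 and wild-type replicate 3.

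*Cpe*, the carboxypeptidase that follows both convertases, had the lowest coefficient of variation of the members over the 5 PDX1P33T libraries, 7.36%. Without replicate 2 its SD of log2 FPKM was 0.106 and that of 5 other members was smaller, down to 0.003 for *Pcsk2*. Values were 1393, 1379, 1585, 1411 and 1597 FPKM in PDX1P33T and ran from 986 to 1502 in wild-type, with a median of 1323. Replicates 3 and 5 of PDX1P33T, a pair of like libraries, were above every wild-type library and the other 3 lay inside the wild-type range. The log2 fold change was 0.24 (SE 0.13, 95% interval -0.04 to 0.53; limma, adjusted p = 0.765; exact permutation p = 0.0563). With the pairs of like libraries averaged it was 0.25 and *Cpe* was not called by limma.

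Among the granins the values of *Chga* and *Chgb* were close between the genotypes with the libraries scaled as deposited. *Chga*, the most abundant, read 5823, 3972, 5192, 5667 and 5181 FPKM in PDX1P33T and from 4127 to 5987 in wild-type, with a median of 4644. The 2 ranges covered nearly the same span, and the log2 fold change was 0.07 (SE 0.15, 95% interval -0.25 to 0.40; limma, adjusted p = 1.00). For *Chga* it was 0.17 without PDX1P33T replicate 2 and 0.22 with the libraries scaled without the hormone genes. With the trends on GC content and length removed it was 0.28, and with the pairs of like libraries averaged -0.02. *Chgb* read 684, 462, 626, 647 and 612 FPKM in PDX1P33T and from 435 to 633 in wild-type, with a median of 552. The lowest libraries were PDX1P33T replicate 2 and wild-type replicate 3. They read 462 and 435 FPKM, against at least 612 and 540.0 in the rest of their groups. The log2 fold change of *Chgb* was 0.15 (SE 0.13, 95% interval -0.13 to 0.43; limma, adjusted p = 1.00), and 0.18 without these 2 libraries, where it was not called either. The exact permutation p fell from 0.2554 to 0.0476 without them. The spread fell as well, with an SD of log2 FPKM in PDX1P33T of 0.220, and of 0.070 without replicate 2.

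*Scg2*, the precursor of secretoneurin, had the largest difference of the members. It read 1309, 1783, 1529, 1278 and 1537 FPKM in PDX1P33T and from 603 to 1506 in wild-type, with a median of 1089.7. Wild-type replicate 1, the highest at 1506, was inside the PDX1P33T range. Replicate 3 was the lowest at 603, and it and the other 4 wild-type libraries were below all PDX1P33T libraries. The log2 fold change was 0.53 (SE 0.20, 95% interval 0.09 to 0.96; limma, adjusted p = 0.499; exact permutation p = 0.0173). Without PDX1P33T replicate 2 and wild-type replicate 3 it was 0.30 with an exact permutation p of 0.0635. The log2 fold change was 0.64 without wild-type replicate 1 (limma, adjusted p = 0.177). With the pairs of like libraries averaged it was 0.59 (limma, adjusted p = 0.989). *Scg3*, which binds *Chga* protein at the granule membrane, read 493, 443, 542, 525 and 546 FPKM in PDX1P33T, a coefficient of variation of 8.42%.

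*Slc30a8* encodes the zinc transporter of the insulin granule and had the highest coefficient of variation over the 5 PDX1P33T libraries, 28.4%. Without replicate 2 the SD of log2 FPKM was 0.192 for *Slc30a8* and 0.256 for *Pcsk1*, which then varied most. It read 232, 445, 294, 239.8 and 298 FPKM in PDX1P33T and, on the row found under the 8-fold limit, from 178 to 347 in wild-type with a median of 241. Replicate 2 of PDX1P33T was above every wild-type library and the other 4 were inside the wild-type range. In the fit under that limit the log2 fold change was 0.26 (SE 0.19, 95% interval -0.16 to 0.67; limma, adjusted p = 1.00). It was 0.11 without PDX1P33T replicate 2, 0.16 without wild-type replicate 3 and 0.08 with the trend on GC content and length of each library removed, and without both libraries the exact permutation p was 0.9365.

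**Figure D2:**
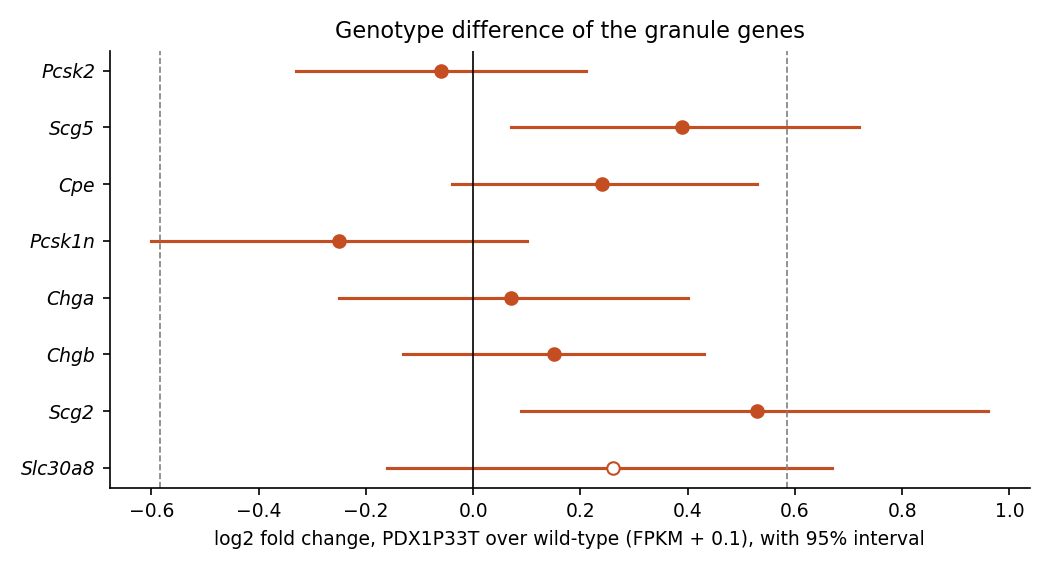
Log2 fold change of PDX1P33T (n = 5) over wild-type (n = 6), on the scale of FPKM + 0.1, for the 8 genes with a wild-type row; bars are 95% intervals of the limma fit, dashed lines mark a fold change of 1.5, and the open point for *Slc30a8* rests on the 8-fold limit. The intervals of *Scg5* (0.07 to 0.72) and *Scg2* (0.09 to 0.96) lie above 0 and the other 6 cover it.

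Ratios between members do not depend on how a library is scaled, but they still carry its trends on GC content and length. They were not recomputed with these trends removed. From pairs chosen by function 8 ratios were computed. Of these, 4 could be tested between genotypes, and none had an adjusted p at or under 0.05. The ratio of *Scg5* to its partner *Pcsk2* was 0.679, 1.40, 0.714, 0.637 and 0.695 in PDX1P33T and from 0.419 to 0.703 in wild-type, with means of 0.826 ± 0.325 (SD, n = 5) and 0.583 ± 0.103 (SD, n = 6). Replicate 2 was far above the other PDX1P33T libraries. *Scg5* and *Pcsk2* differ in gene length, 1569 and 7910 bases, and the part of the length trend in this ratio was not tested. The log2 difference of the genotypes was 0.45 and did not pass the threshold (two-sided exact permutation p = 0.0433, Benjamini-Hochberg adjusted p over the 4 ratios 0.1645). It was 0.24 without PDX1P33T replicate 2 (exact permutation p = 0.0952) and 0.15 without that library and wild-type replicate 3 (exact permutation p = 0.1587). *Scg2* to *Chga* was 0.298 ± 0.0913 in PDX1P33T (n = 5) and 0.216 ± 0.0509 in wild-type (n = 6), with an exact permutation p of 0.0823 and an adjusted p of 0.1645. *Cpe* to *Pcsk2* was 2.18 ± 0.279 and 1.79 ± 0.406 (n = 5 and 6, exact permutation p = 0.1342, adjusted 0.1789).

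The chromogranins kept the tightest proportion. *Chgb* to *Chga* was 0.117 ± 0.00239 over the 5 PDX1P33T libraries, replicate 2 included at 0.116, although both genes were at their lowest there. In wild-type the ratio was 0.112 ± 0.0123 over 6 libraries, and the genotypes did not differ beyond the spread (exact permutation p = 0.3333, adjusted 0.3333). The ratios that had no wild-type counterpart moved widely within PDX1P33T, *Pcsk1* to *Pcsk2* from 0.104 to 0.236 and *Pcsk1n* to *Pcsk1* from 6.17 to 15.3. *Cpe* to *Pcsk1* ran from 11.1 to 18.5, and *Scg3* to *Chga* from 0.0847 to 0.111. In each of these 4 ratios PDX1P33T replicate 2 was at one end of the range and replicate 1 at the other.

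**Figure D3:**
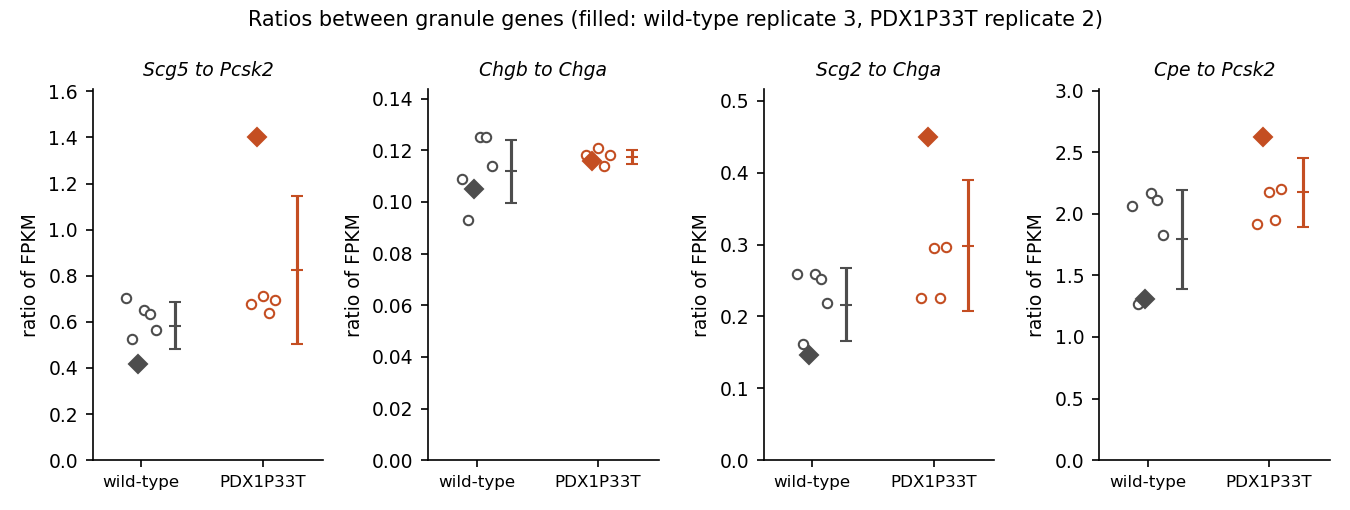
Ratio of the FPKM of 2 genes within each library (linear axes from 0) for the 4 ratios that could be tested, 6 wild-type and 5 PDX1P33T libraries; points are libraries, filled diamonds are wild-type replicate 3 and PDX1P33T replicate 2, and bars are mean ± SD. *Scg5* to *Pcsk2* reaches 1.40 in PDX1P33T replicate 2 against 0.637 to 0.714 in the other 4, while *Chgb* to *Chga* stays between 0.114 and 0.121 in all 5.

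PDX1P33T replicate 2 split the members into a high and a low set. *Pcsk1*, *Scg5*, *Scg2* and *Slc30a8* were at their highest there, and *Pcsk2*, *Pcsk1n*, *Cpe*, *Chga*, *Chgb* and *Scg3* at their lowest. Such an extreme place was common, as 50.9% of the 3495 genes that averaged 10 FPKM or more were highest and 33.7% lowest in this library. The transcripts of the 4 high members had a GC content from 40.6% to 48.1% and those of the 6 low ones from 46.5% to 58.4%. Over all genes log2 FPKM in replicate 2 moved by -0.37 per 10% of GC and by -0.22 per doubling of length, beside -0.03 to 0.14 per 10% of GC in the other PDX1P33T libraries. With that trend removed, the gap of replicate 2 to the mean of the other 4 went from 0.49 to -0.13 on the log2 scale for *Pcsk1* and from 0.34 to -0.04 for *Scg2*. *Slc30a8* went from 0.75 to 0.24 and *Scg5* from 0.58 to 0.13, and both stayed the highest. The 6 low members stayed the lowest, with *Scg3* going from -0.25 to -0.62 and *Chgb* from -0.47 to -0.53.

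The 8 acinar markers summed to 109 FPKM in replicate 2 and to between 8.47 and 18.7 in the other PDX1P33T libraries, and none of them could be compared with wild-type. The part of these values in the split was not tested. The SD of log2 FPKM was above the median of all genes, 0.18, for 8 of the 10 members, and without replicate 2 it was above the median, then 0.09, for 5.

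**Figure D4:**
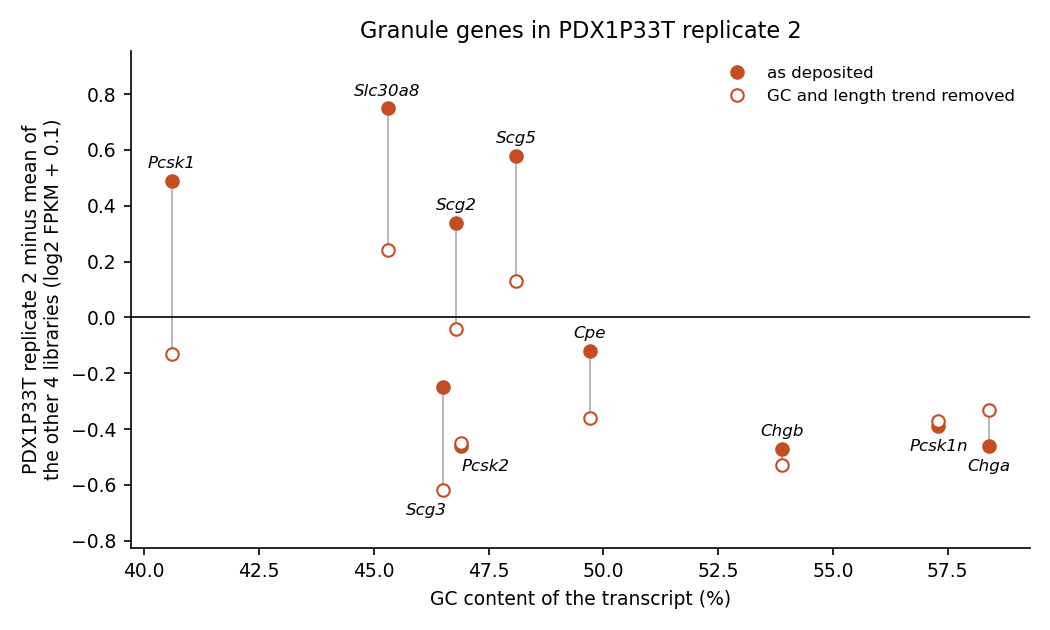
Gap between PDX1P33T replicate 2 and the mean of the other 4 PDX1P33T libraries (log2 of FPKM + 0.1) for each of the 10 genes, against the GC content of the transcript in percent; filled points are values as deposited, open points those with the trend on GC and length removed, and lines join the same gene. *Pcsk1* falls from 0.49 to -0.13 and *Slc30a8* from 0.75 to 0.24, while the 6 genes below 0 stay below it.

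*Slc30a8* had the widest spread of the members when replicate 2 was included, and the genes that followed it most closely were sought by the SD of their log2 ratio to it. Over the 5 PDX1P33T libraries these were *Ap1s2* with an SD of 0.014, then *Fh1*, *Amd1*, *Gjd2* and *Dars* with SDs up to 0.038, out of 3494 genes whose median was 0.36. Of the other members *Pcsk1* at 0.13, *Scg5* at 0.15 and *Scg2* at 0.19 ran closest to it and *Pcsk1n* at 0.60 least closely. Within genotype over all 11 libraries the closest of 1308 genes were *Ociad2* at 0.083, *Klhl7*, *Efcab1*, *Fkbp1b* and *Enpp5* at up to 0.102. Libraries share depth and composition across genes, so these are descriptions of likeness.

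The rest of the pathway was read from lists of related genes. No gene of the 5 lists was called by limma in either direction, where 0.0847% of all genes tested were. Counts at an unadjusted p under 0.05 follow for each list. That level was reached by 34.0% of all genes tested, a share that depends on how a gene was placed. It was 87.1% for genes placed by the reads of the study's gene table and 14.5% for genes that met the length and level rule. Of the other processing enzymes 5 of 14 were in the fit, 3 with a positive and 2 with a negative log2 fold change (median 0.10), and 2 had an unadjusted p under 0.05, both higher. They were *Qpct*, which forms pyroglutamate at peptide ends and was placed by the reads of the study's gene table, at 2.19 ± 0.404 FPKM in PDX1P33T and 1.57 ± 0.393 in wild-type (log2 fold change 0.47, SE 0.18; limma, adjusted p = 0.499), and *Pam*, which amidates peptide ends, at 60.5 ± 6.29 and 49.6 ± 8.10 FPKM (0.30, SE 0.12; limma, adjusted p = 0.529). *Ece1*, an endopeptidase and the most abundant of the list, had 80.8 ± 11.4 FPKM in PDX1P33T and no wild-type row.

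Other granule proteins had 3 of 8 genes in the fit, all with positive log2 fold changes (median 0.08) and none with an unadjusted p under 0.05. *Resp18*, a granule protein of neuroendocrine cells, was as abundant as *Pcsk1n*, at 977 ± 44.2 FPKM in PDX1P33T and 926 ± 78.2 in wild-type. Its log2 fold change was 0.08, as was that of *Nucb2*, the precursor of nesfatin. *Ptprn2*, a membrane protein of the granule, had the largest difference of this list at 0.43 (SE 0.25; limma, adjusted p = 0.916), which was 0.21 without wild-type replicate 3. Its relative *Ptprn* had 261 ± 46.5 FPKM in PDX1P33T.

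Genes of granule biogenesis and sorting had 9 of 18 members in the fit, 5 with a positive and 4 with a negative log2 fold change (median 0.04), and none had an unadjusted p under 0.05. The largest differences were 0.38 for *Vps50* and -0.32 for *Pick1* (SE 0.18 and 0.17; limma, adjusted p = 0.608 and 0.755), both low in level at 2.49 and 1.37 FPKM in PDX1P33T. That of *Pick1* was -0.19 without wild-type replicate 3. The abundant *Rab2a*, a small GTPase of granule maturation, and *Ap1s1*, a clathrin adaptor subunit, had 0.04 and -0.05.

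The vacuolar proton pump acidifies the granule. Of its 17 subunits and accessory genes 6 were in the fit, all 6 with a positive log2 fold change (median 0.29), and 2 had an unadjusted p under 0.05, both higher, where 15.7% of all genes tested did. *Atp6ap2*, an accessory subunit placed by the reads of the study's gene table, had 134 ± 34.1 FPKM in PDX1P33T and 94.5 ± 20.6 in wild-type, a log2 fold change of 0.49 (SE 0.18; limma, adjusted p = 0.499). *Atp6v1h*, of the cytosolic part of the pump, had 0.30 (SE 0.14; limma, adjusted p = 0.595), as had *Atp6v1g1* (SE 0.14; limma, adjusted p = 0.647), for which it was 0.14 without PDX1P33T replicate 2. PDX1P33T replicate 2 was again apart, with 212 FPKM of *Atp6v1g1* and 185 of *Atp6v1f* beside 118 to 127 and 123 to 133 in the other 4, and the list summed to 1346 FPKM there against 968 to 1036 elsewhere.

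Other zinc transporters were far less abundant than *Slc30a8*, led by *Slc39a1* at 17.7 to 24.2 and *Slc39a3* at 12.1 to 16.5 FPKM in PDX1P33T. Of the 21 genes 4 were in the fit, 1 with a positive and 3 with a negative log2 fold change (median -0.15), and 3 had an unadjusted p under 0.05, 1 higher and 2 lower, where 34.0% of all genes tested did. All 3 were placed by the reads of the study's gene table, where that share was 87.1%. *Slc39a7*, a zinc exporter of the endoplasmic reticulum, had 2.30 ± 0.139 FPKM in PDX1P33T and 1.78 ± 0.246 in wild-type (log2 fold change 0.36, SE 0.11; limma, adjusted p = 0.499). *Slc39a5*, an importer at the cell surface, had 0.224 ± 0.214 and 0.580 ± 0.377 FPKM (-1.10, SE 0.39; limma, adjusted p = 0.499), and its groups overlapped. The third, *Slc39a13*, named after its value was seen, had a log2 fold change of -0.23 (limma, adjusted p = 0.499).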

How the data were processed

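Whole-islet RNA was sequenced in bulk from 6 wild-type and 5 PDX1P33T libraries. The authors deposited FPKM per gene ID and library. Per the methods, islets were cultured before extraction, and reads were filtered, aligned and counted before conversion to FPKM. A gene was kept if 80% or more of the replicates of either condition held a value, so it could be absent from the other. The submitters' processing notes name fastp 0.23.1, HISAT2 2.0.5, featureCounts 1.5.0-p3, DESeq2 1.20.0 and the build GRCm39, also called mm39. Both a strand-specific and a non-strand-specific protocol are described without saying which was used, so reads of overlapping and antisense genes cannot be told apart.

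Most wild-type FPKM stood on rows of other genes. Gene lengths were recovered as the smallest length that turns every FPKM of a row into a whole number of reads (tolerance 2e-06 reads, plus 1e-08 per read counted), which gave 98.3% of the lengths listed in the study's own gene table. Wild-type rows were put back by the wild-type reads of that table (1712 genes, 13 of them on their own row as deposited) or by length and level (3052 genes), which needed at least 100 reads per genotype, genotype means no more than 4-fold apart and every other candidate over 16-fold away. Of 403 genes found both ways, 403 got the same row. *Scg5* and *Scg2* met both rules. The table's fold changes and p-values were not used.

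Of the 4764 genes put back (24.6% of gene IDs), 39 listed at 0 in every PDX1P33T library were left out and 4725 were fitted with limma 3.58.1 in R 4.3.3 on log2(FPKM + 0.1), trend and robust, without covariates. Fold changes are on that scale, which understates those of low genes. Calls needed a Benjamini-Hochberg adjusted p up to 0.05, over all 19329 gene IDs, and a change by 1.5 times or more. Genes that could not be put back were counted as unchanged, which raises the adjusted p of the genes tested. Adjusted over the genes in the fit alone, p (limma) was 0.122 for *Scg2* and for *Scg5* and 0.187 for *Cpe*. Single members and ratios were compared by two-sided exact permutation tests over all 462 assignments of the libraries to 6 and 5, in Python 3.11.15 with SciPy 1.17.1, numpy 2.4.6 and pandas 2.3.3, and plotted with matplotlib 3.10.9. The scripts were tested on simulated data. GC content came from GENCODE transcripts and promoters from RefSeq, both on GRCm38. The labels do not say whether libraries came from separate mice, so p-values set group differences against a spread between libraries that may be technical. Intervals of 95% are confidence intervals of the mean log2 difference and rest on the same spread. The members and lists were chosen with earlier results of these data known. Named were all 10 members, the called genes of each list or else the 2 with the largest fold change and the 2 with the highest PDX1P33T mean, and for the member of widest spread the 5 genes most like it. Other pseudocounts, filters, scalings, blocks, left-out libraries, limits on the match and a correction for GC and length were tried.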

Additional observations from a re-analysis of the deposited data

Results flagged for a closer look

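Of 63 groups of values tested for a sample far from the others, over members, ratios and list genes, 9 had one, and chance gives about 1 in 20. PDX1P33T replicate 2 was that sample in 7 of the 9. *Pcsk2* read 527 FPKM there against 723 to 726 in the other 4 PDX1P33T libraries, and *Scg5* read 739.7 against 460.3 to 518. Their ratio, *Scg5* to *Pcsk2*, was 1.40 against 0.637 to 0.714. Among the genes of the pathway lists, *Ece1* read 60.6 FPKM against 83.8 to 87.9 and *Rab2a* 166 against 132 to 139. The proton pump subunits *Atp6v1g1* and *Atp6v1f* read 212 against 118 to 127 and 185 against 123 to 133. In the other 2 groups, *Ap1s1* read 58.4 FPKM in wild-type replicate 3 against 46.6 to 49.6 in the other 5, and *Slc39a5* read 0.602 FPKM in PDX1P33T replicate 1 against 0.0758 to 0.167.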

How the results depend on the processing

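No member was called under any alternative run. No gene of the 5 pathway lists was called with a pseudocount of 1, with centring on the median gene or with any library left out. None of the 4 ratios passed its threshold with any library left out. Under the block by title numbers the ratios could not pass, as an exact test on so few pairs cannot reach the threshold. Over the alternatives *Scg2* had a log2 fold change between 0.30 and 0.67 and *Scg5* between 0.20 and 0.54, with adjusted p (limma) from 0.122 to 1.00 for each. Of 191 fold changes of members recomputed, 4 changed sign. *Pcsk2* went from -0.06 to 0.08 with FPKM rescaled without the hormone genes, to 0.03 without PDX1P33T replicate 2 (range with each library left out -0.10 to 0.03) and to 0.05 without that library and wild-type replicate 3. *Chga* went to -0.02 with the pairs of like libraries averaged. Of 182 for list genes, *Rab2a* changed sign, to -0.01 without PDX1P33T replicate 2 (range -0.01 to 0.07). The causes were not tested.

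Of all genes tested, 2 were called higher and 2 lower. The counts were 6 and 7 with p adjusted over the genes in the fit, 0 and 1 with like libraries averaged, 0 higher with a log2 fold change of 1.5 or more required, 1 higher with a mean of at least 1 FPKM or a pseudocount of 0.01, 5 higher with rescaling, 1 lower with only genes put back by reads, and 4 lower without wild-type replicate 3 and PDX1P33T replicate 2. With a library left out the calls ran from 1 to 3 higher and from 2 to 5 lower. Numbers shared by titles were not taken as pairs in the main fit. Same-numbered libraries correlated at -0.57 to 0.27 in their deviations from the group means, which cannot exclude a shared batch. A replicate block by title numbers gave 0 higher and 1 lower, and a block by library numbers gave 1 higher. Members with a spread above the median of all genes numbered 8, and from 5 to 8 with a PDX1P33T library left out, 5 being without replicate 2. Alternatives on the 8-fold limit, the trend on GC and length, like libraries and both odd libraries were added after seeing the data. Depth did not limit the members, whereas the 4-fold limit on the length match hides larger differences.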
